A study of Mus musculus with 12 samples.

Results

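Focal adhesions are the protein plaques that join integrins at the cell membrane to the actin cytoskeleton. The genes described here are 37 such components, chosen by gene symbol: integrin adaptors, scaffold and signalling proteins, caveolins, actin crosslinkers, tropomyosins and contractile genes. All 37 were found among the 40406 entries of the count table, and 35 of them were among the 15538 genes with enough counts to be tested. Acta2 and Myl9 were not tested. As background, talins and kindlins bind the cytoplasmic tails of β integrins and switch the receptor to its high-affinity state, and the complex of ILK, PINCH and parvin joins them there. Paxillin, FAK and SRC relay the signal, vinculin and zyxin reinforce the plaque under tension, and filamin, α-actinin, tropomyosin and myosin shape the actin bundles that end in it. In mammary carcinoma cells this machinery carries attachment, spreading and migration.

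The cells were 4T1, a triple-negative mammary carcinoma line of BALB/c mice, which grew in serum-containing DMEM on plastic coated with poly-L-lysine, so no matrix protein was added as a coating. They carried the label knockout or wild type for integrin β3, a β subunit whose tail is bound by several of the proteins above. Either docetaxel at 10 nM, a taxane that stabilises microtubules, or its solvent DMSO was given for 24 h, and RNA was collected after a further 48 h without drug. The groups were knockout-labelled cells after docetaxel (KO-DTX), knockout-labelled cells after DMSO (KO-DMSO), wild-type cells after docetaxel (WT-DTX) and wild-type cells after DMSO (WT-DMSO), with 3 libraries each that the labels call biological triplicates. The labels do not tell how the knockout was made or whether it is 1 clone.

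Total counts lay between 28.7 and 40.8 mega-counts per library, and the 37 genes took 1.45% to 1.61% of them. Itgb3, the gene of the label, passed no test between the genotypes under DMSO, with 62.4, 66.7 and 65.0 CPM (counts scaled to the size of the library) in KO-DMSO libraries and 71.4, 60.1 and 66.1 CPM in WT-DMSO libraries (log2 difference -0.03, adjusted p = 0.874). After docetaxel it was 1.33-fold lower in knockout-labelled cells (adjusted p = 0.00765), so the cells are called knockout-labelled throughout. WT-DMSO library 1 is wild type by title and genotype but is called a knockout in its description. Its level of Cldn7, a claudin, was 9.32 CPM, where the 6 knockout-labelled libraries lay between 0.0294 and 0.189 CPM and the 6 wild-type libraries between 7.11 and 9.32 CPM. The small RNA entry Gm23935 took 3.98% of the counts of WT-DMSO library 2 and 1.51% of those of KO-DTX library 3, the highest shares in their groups, and 1.62% of those of WT-DMSO library 1, so results without the first pair still hold a library with a higher share than KO-DTX library 3. Deviations from the group mean followed transcript GC content in some libraries, with Spearman correlations across genes of -0.664 in KO-DTX library 1 and 0.633 in KO-DTX library 2. All 10 epithelial markers were tested, and summed to 3478 to 4596 CPM in KO-DTX, 4630 to 4868 in KO-DMSO, 3423 to 4210 in WT-DTX and 3632 to 4787 in WT-DMSO libraries. The keratins Krt18 and Krt19 among them fell after docetaxel in both genotypes, and in wild-type cells Esrp1 also fell and Krt14 and Cldn4 rose. Between the genotypes, Epcam, Krt19 and Esrp1 were called higher and Cldn7 lower in knockout-labelled cells under both treatments. The 14 fibroblast and mural markers, 11 of them under 1 CPM on average and Lum at 0, summed to 19.8 to 22.9 CPM in KO-DTX, 17.3 to 21.4 in KO-DMSO, 25.7 to 26.9 in WT-DTX and 30.1 to 32.3 in WT-DMSO libraries. Of the 6 that were tested, Fap, Rgs5 and Postn rose after docetaxel in both genotypes, Col1a1 fell in knockout-labelled cells and Pdgfra fell in wild-type cells. Against wild-type cells, knockout-labelled cells had Rgs5 higher and Pdgfra lower under both treatments, and Postn higher under DMSO. Postn averaged 5.95 ± 0.495 CPM in KO-DTX against 1.93 ± 0.455 CPM in KO-DMSO libraries and 4.20 ± 0.706 CPM in WT-DTX against 0.594 ± 0.239 CPM in WT-DMSO libraries (SD, n = 3). The part of both marker lists in the results below was not tested. The 8 leukocyte markers, 5 of them under 1 CPM and Tyrobp at 0, summed to 16.9 to 37.4 CPM. In such bulk libraries, fewer cells of a type and less RNA per cell cannot be told apart.

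Levels of the 37 genes differed widely. Per kilobase of exons, β-actin (Actb) averaged 2137 CPM over the 12 libraries, γ-actin (Actg1) 503 CPM and transgelin 2 (Tagln2) 289 CPM. Tpm4, Flna, Myl12a, Myh9, Actn1, Tpm1 and Cnn2 followed between 86.5 and 185 CPM per kilobase. Of the same classes, Actn4 came after them at 57.4 and Tpm2 far below at 3.65 CPM per kilobase. The plaque proteins lay below Actn4, with talin 1 (Tln1) at 47.9, zyxin (Zyx) at 43.4, paxillin (Pxn) at 32.8 and vinculin (Vcl) at 22.8 CPM per kilobase. Both caveolins and both kindlins lay between 14.5 and 21.9 CPM per kilobase.

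The markers of smooth muscle were close to absent. Myl9, the smooth muscle myosin light chain, had 2 counts in all 12 libraries together, and Acta2, smooth muscle actin, had 3 to 17 counts per library. Tagln, transgelin, had 7 to 56 counts, Tgfb1i1 (Hic-5) 2 to 20 and Lims2 (PINCH2) 5 to 37. Ilk also read low, at 16 to 53 counts per library, but 89.7% of its exon bases are shared with other genes in the annotation, 76.7% with Taf10. The counting may have split or dropped reads of Ilk there, so its level and differences are uncertain. The same holds for Tagln, which shares 67.9% of its exon bases, for Vcl with 25.5% and for Myl12a with 19.9%.

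**Figure D1:**
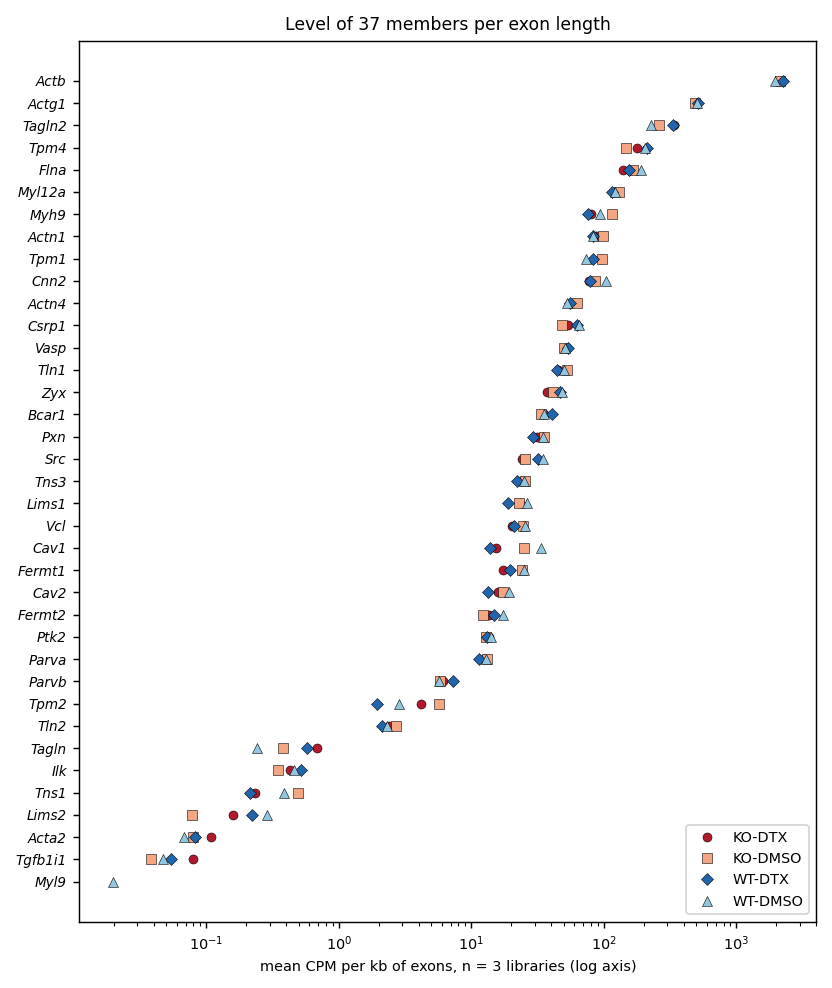
Mean CPM per kilobase of exons (log axis) of the 37 genes, 1 point per group of 3 libraries. Actb lies at the top at about 2137, Myl9 at the bottom with a point for WT-DMSO only, and within a gene the 4 groups mostly lie close together, with Lims2, Tpm2, Tagln, Cav1, Tns1 and Tgfb1i1 spread wider.

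More of these genes were called lower than higher after docetaxel, by 4 to 1 in knockout-labelled and 8 to 2 in wild-type cells. The largest called fall was that of tensin 1 in knockout-labelled and of caveolin 1 in wild-type cells. In knockout-labelled cells 1 of 35 tested genes rose (Tagln2) and 4 fell (Cav1, Tns1, Fermt1 and Flna), beside 9.09% of all tested genes that rose and 7% that fell. In wild-type cells 2 rose (Tagln2 and Parvb) and 8 fell (Cav1, Tns1, Cav2, Lims1, Cnn2, Fermt1, Flna and Pxn), beside 14.5% of all tested genes that rose and 13.8% that fell. A gene was called at an adjusted p under 0.05 in edgeR's quasi-likelihood test over all tested genes. The share of the 35 that was called either way, 5 in knockout-labelled and 10 in wild-type cells, was thus near that of all genes. The share that fell, 11.4% and 22.9%, was above that of all genes, but rests on 4 and 8 genes. Of the 4, Flna lost its call in 8 of 16 other settings. Of the calls over all genes in knockout-labelled cells, 56.5% were higher, and 45.3% with upper-quartile scaling. The median log2 fold change over the 35 was -0.07 in knockout-labelled and -0.12 in wild-type cells, beside 0.00 and 0.02 over all genes. All 5 genes called in knockout-labelled cells were called in wild-type cells in the same direction, which is 100% of the first list and 50% of the second. The 2 docetaxel effects rest on separate libraries, and their signs were the same for 27 of 35 genes. Shared calls and shared signs were not counted over all genes, so whether they are particular to the 35 was not tested. In each genotype, docetaxel libraries lay wholly above DMSO libraries in 4 of the 35 genes and wholly below in 12. Over all tested genes these shares were 19.2% and 18.5% in knockout-labelled and 21.2% and 19.3% in wild-type cells. Without WT-DMSO library 2 and KO-DTX library 3, 4 of the 35 genes were called in knockout-labelled and 8 in wild-type cells, where the calls over all genes were 1748 (2499 with all libraries) and 3109 (4406 with all libraries). Without WT-DMSO library 1, the one with the conflicting description, 11 of the 35 and 4771 of all genes were called in wild-type cells.

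**Figure D2:**
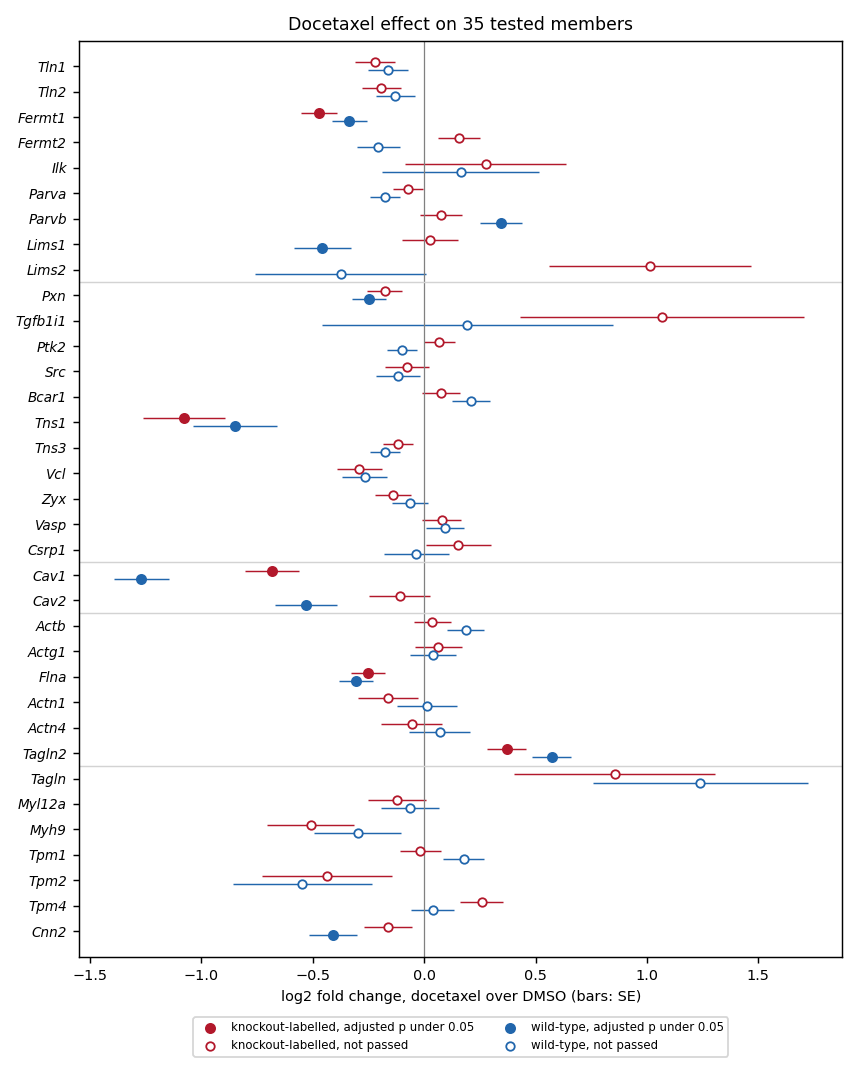
Log2 fold change of docetaxel over DMSO with its SE for the 35 tested genes, ordered by role, in knockout-labelled cells (red, upper point) and wild-type cells (blue, lower point), with filled points where the adjusted p was under 0.05. Cav1 and Tns1 lie farthest to the left among the called genes and Tagln2 farthest to the right.

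Caveolin 1 fell in both genotypes and caveolin 2 in wild-type cells. Cav1 encodes caveolin 1, the main structural protein of caveolae, the small pits of the plasma membrane, and Cav2 its partner in them. Cav1 stood at 51.9, 50.3 and 57.7 CPM in KO-DTX libraries, against 80.5, 85.8 and 90.02 CPM in KO-DMSO libraries, and the fall was 1.60-fold (log2 fold change -0.68, SE 0.12, adjusted p = 0.00183). In wild-type cells it stood at 46.5, 49.9 and 47.1 CPM in WT-DTX libraries, against 96.9, 143 and 106 CPM in WT-DMSO libraries, a 2.41-fold fall (log2 fold change -1.27, SE 0.12, adjusted p = 1.40e-05). All docetaxel libraries lay below all DMSO libraries of either genotype, and the docetaxel libraries of the 2 genotypes lay within 46.5 to 57.7 CPM. Cav2 stood at 44.2, 44.4 and 44.9 CPM in WT-DTX libraries, against 53.3, 81.1 and 58.4 CPM in WT-DMSO libraries, 1.44-fold lower (log2 fold change -0.53, SE 0.14, adjusted p = 0.0117). The highest of these values, 81.1 CPM, came from WT-DMSO library 2, the richest in Gm23935. Without that library and KO-DTX library 3 the Cav2 fold change was -0.33 (adjusted p = 0.0646), and that of Cav1 remained called. In knockout-labelled cells Cav2 had 60.1, 45.0 and 54.6 CPM after docetaxel and 54.3, 57.7 and 60.4 CPM after DMSO, which overlap (adjusted p = 0.636). The 2 genes are neighbours on chromosome 6 of GRCm38, Cav2 at 17281185 to 17289115 and Cav1 at 17306335 to 17341452, both on the plus strand.

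The window around the start of Cav1, from 250 bases before it to 50 after it, is shown because this gene had the largest called fall in wild-type cells. It is taken from RefSeq on GRCm38.p6, is printed 5′ to 3′ on the gene's strand, and held none of the 3 motifs searched (the CArG box of serum response factor, the TEAD hexamer GGAATG and the AP-1 heptamer TGANTCA, on both strands), so no base is in capitals. 
Cav1 promoter, chr6:17306085-17306384, plus strand: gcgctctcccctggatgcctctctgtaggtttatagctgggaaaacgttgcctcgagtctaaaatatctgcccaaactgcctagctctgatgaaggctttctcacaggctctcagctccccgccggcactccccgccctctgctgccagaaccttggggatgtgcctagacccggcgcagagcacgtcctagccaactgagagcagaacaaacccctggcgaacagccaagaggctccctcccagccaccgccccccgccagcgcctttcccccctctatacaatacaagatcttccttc

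Among the proteins that bind integrin tails or sit in the ILK complex, kindlin 1 fell in both genotypes. Fermt1 encodes kindlin 1, the kindlin of epithelial cells, a co-activator of integrins. It had 107, 92.8 and 97.2 CPM in KO-DTX libraries, against 137, 138 and 137 CPM in KO-DMSO libraries (log2 fold change -0.47, SE 0.08, adjusted p = 0.00129). In WT-DTX libraries it had 122, 108 and 106 CPM, against 136, 145 and 142 CPM in WT-DMSO libraries (log2 fold change -0.34, SE 0.08, adjusted p = 0.00686). No docetaxel library reached a DMSO library, and the folds were 1.39 in knockout-labelled and 1.26 in wild-type cells. The summed epithelial markers were likewise lower in every KO-DTX than in any KO-DMSO library and overlapped between WT-DTX and WT-DMSO libraries, and their part in this fall was not tested. Fermt2, kindlin 2, which most cell types express, was not called in either, at 0.16 (SE 0.10, adjusted p = 0.293) in knockout-labelled and -0.21 (SE 0.09, adjusted p = 0.123) in wild-type cells on the log2 scale.

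Members of the ILK complex moved in wild-type cells in opposite directions. Lims1 (PINCH1, the LIM-domain adaptor of ILK) had 96.5, 89.3 and 93.9 CPM in WT-DTX libraries, against 110.1, 154 and 119 CPM in WT-DMSO libraries, a 1.37-fold fall (log2 fold change -0.46, SE 0.13, adjusted p = 0.0160). The top value again came from WT-DMSO library 2, and without it the fold change was -0.30 (adjusted p = 0.0746). Without WT-DTX library 2 the call was also lost (adjusted p = 0.0542). Parvb, β-parvin, which links ILK to actin, had 34.3, 29.6 and 32.5 CPM in WT-DTX libraries, against 26.04, 25.5 and 24.3 CPM in WT-DMSO libraries, a 1.27-fold rise (log2 fold change 0.35, SE 0.09, adjusted p = 0.0140). Its groups did not overlap, and the call was lost without WT-DTX library 1, WT-DTX library 3 or WT-DMSO library 3 (adjusted p between 0.0508 and 0.0655). In knockout-labelled cells the log2 fold changes were 0.03 (SE 0.13, adjusted p = 0.920) for Lims1 and 0.08 (SE 0.09, adjusted p = 0.629) for Parvb, with overlapping libraries for both. The talins Tln1 and Tln2 and α-parvin (Parva) were not called in either genotype, with log2 fold changes between -0.22 and -0.07. Of the 9 genes of this group, 1 fell and none rose in knockout-labelled cells, and 2 fell and 1 rose in wild-type cells.

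Of the 11 scaffold and signalling genes, tensin 1 fell in both genotypes and paxillin in wild-type cells. Tns1 encodes a protein that binds both β integrin tails and actin in long, mature adhesions. Its level was low, 3.31, 3.48 and 4.50 CPM in KO-DTX libraries against 7.26, 7.82 and 8.67 CPM in KO-DMSO libraries, and the fall was 2.11-fold (log2 fold change -1.08, SE 0.18, adjusted p = 0.00137). It had 3.56, 3.15 and 3.50 CPM in WT-DTX libraries, against 4.73, 5.88 and 7.77 CPM in WT-DMSO libraries, a 1.80-fold fall (log2 fold change -0.85, SE 0.19, adjusted p = 0.00452). Docetaxel and DMSO libraries did not overlap in either genotype. Pxn, the scaffold on which FAK and SRC meet their substrates, had 228, 246 and 246 CPM in WT-DTX libraries, against 267, 281 and 306 CPM in WT-DMSO libraries (log2 fold change -0.25, SE 0.08, adjusted p = 0.0262). This 1.19-fold fall lost its call without WT-DTX library 1, WT-DTX library 3 or WT-DMSO library 3, with adjusted p between 0.056 and 0.105. It was also lost with no filter on low counts (adjusted p = 0.103) and with the libraries of the comparison alone (adjusted p = 0.0891). Without WT-DMSO library 2 and KO-DTX library 3 together the adjusted p was 0.0610. In knockout-labelled cells Pxn had 244, 260.3 and 269 CPM after docetaxel and 285, 295 and 294 CPM after DMSO, which also did not overlap (log2 fold change -0.18, adjusted p = 0.131).

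Vinculin came close to the threshold in both genotypes. Vcl had 142, 184 and 169 CPM in KO-DTX libraries and 195, 206 and 205 CPM in KO-DMSO libraries (log2 fold change -0.29, adjusted p = 0.0666), and 166, 179 and 173 CPM in WT-DTX and 205, 186 and 233 CPM in WT-DMSO libraries (-0.27, adjusted p = 0.0645). Neither pair of groups overlapped, and with upper-quartile scaling Vcl was called lower in both. That scaling also moved the median log2 fold change of all genes in knockout-labelled cells from 0.00 to -0.04. The kinases FAK (Ptk2) and SRC, the docking protein p130Cas (Bcar1) and the actin elongation factor VASP were not called, with log2 fold changes between -0.12 and 0.21. Zyxin, Csrp1 and tensin 3 were not called either, and low counts left Tgfb1i1 with SEs of 0.64 in knockout-labelled and 0.65 in wild-type cells.

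Filamin A and transgelin 2 moved in opposite directions among the actin-binding proteins, in both genotypes. Flna encodes filamin A, which crosslinks actin filaments and binds β integrin tails in competition with talin. It had 1248, 1375 and 1324 CPM in KO-DTX libraries, against 1600.2, 1557 and 1544 CPM in KO-DMSO libraries (log2 fold change -0.25, SE 0.08, adjusted p = 0.0366). In wild-type cells it had 1429.9, 1455 and 1486 CPM in WT-DTX libraries, against 1836, 1726 and 1849 CPM in WT-DMSO libraries (log2 fold change -0.31, SE 0.08, adjusted p = 0.00855). The libraries did not overlap, and the falls were 1.19-fold and 1.24-fold. In knockout-labelled cells the call was lost without KO-DTX library 1 or 3 or without any 1 of the 3 KO-DMSO libraries (log2 fold change -0.22 to -0.26, adjusted p 0.0888 to 0.11). It was also lost with no filter on low counts (adjusted p = 0.107) and with the libraries of the comparison alone (adjusted p = 0.0559). Without WT-DMSO library 2 and KO-DTX library 3 together the adjusted p was 0.103. Tagln2 encodes transgelin 2, an actin-bundling protein of the calponin family. It had 729, 670.2 and 698 CPM in KO-DTX libraries, against 538, 545 and 539 CPM in KO-DMSO libraries, a 1.29-fold rise (log2 fold change 0.37, SE 0.09, adjusted p = 0.0114). In WT-DTX libraries it had 681, 707 and 702 CPM, against 501, 499.5 and 406 CPM in WT-DMSO libraries, a 1.49-fold rise (log2 fold change 0.57, SE 0.09, adjusted p = 0.000450). Every docetaxel library lay above every DMSO library of either genotype.

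The start of Tagln2, shown as the gene that rose in both genotypes, held the TEAD hexamer on its minus strand at 2 places, in capitals, at -118 and -80 from the start. 
Tagln2 promoter, chr1:172499996-172500295, plus strand: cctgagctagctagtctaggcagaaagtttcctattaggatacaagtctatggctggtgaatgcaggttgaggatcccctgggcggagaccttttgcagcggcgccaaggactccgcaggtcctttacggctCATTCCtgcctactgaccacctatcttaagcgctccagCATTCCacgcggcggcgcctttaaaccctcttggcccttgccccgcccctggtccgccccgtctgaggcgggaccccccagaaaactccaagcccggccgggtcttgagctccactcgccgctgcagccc

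**Figure D3:**
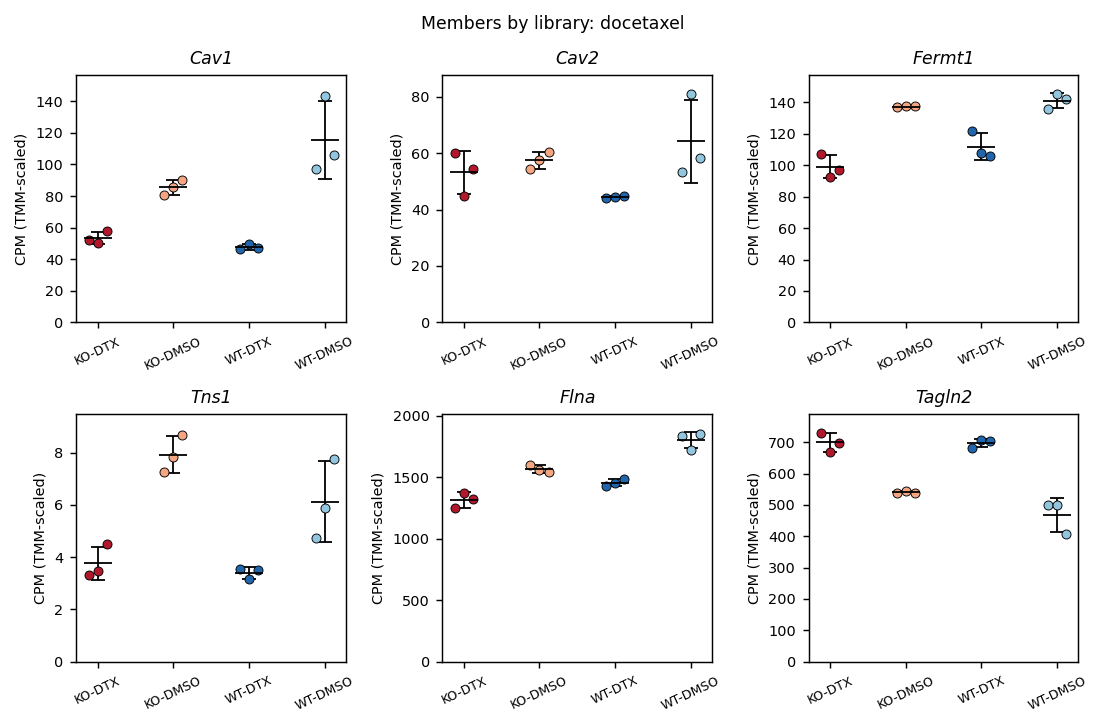
TMM-scaled CPM of Cav1, Cav2, Fermt1, Tns1, Flna and Tagln2 in each of the 12 libraries, with the mean and SD of each group as bars. Cav1, Fermt1, Tns1 and Flna lie lower and Tagln2 higher in both docetaxel groups than in the DMSO group of the same genotype, while Cav2 overlaps in knockout-labelled cells.

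Actin itself and the α-actinins were not called after docetaxel. Actb had 5662, 6076 and 5886 CPM in KO-DTX and 6014, 5453 and 5723 CPM in KO-DMSO libraries, which overlap (adjusted p = 0.815). It had 5943, 6082 and 6015 CPM in WT-DTX and 5573, 5356 and 4919 CPM in WT-DMSO libraries, which do not overlap (0.19 on the log2 scale, adjusted p = 0.108). Actg1 was at 0.06 in knockout-labelled and 0.04 in wild-type cells on the log2 scale, with SEs of 0.10 and 0.10. Actn1 and Actn4 had log2 fold changes between -0.16 and 0.07, with libraries that overlapped in all cases.

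Of the 7 tested contractile and tropomyosin genes, calponin 2 fell in wild-type cells. Cnn2 encodes an actin-binding regulator of myosin outside muscle. It had 171, 216 and 192 CPM in WT-DTX libraries, against 225, 266 and 278 CPM in WT-DMSO libraries, a 1.33-fold fall (log2 fold change -0.41, SE 0.11, adjusted p = 0.0113), which lost its call without WT-DTX library 1 (-0.33, adjusted p = 0.0581). In knockout-labelled cells it had 167, 199 and 203 CPM in KO-DTX and 207, 216 and 214 CPM in KO-DMSO libraries, also without overlap (log2 fold change -0.16, adjusted p = 0.333). Its start held a CArG box, in capitals, at -56. 
Cnn2 promoter, chr10:79988350-79988649, plus strand: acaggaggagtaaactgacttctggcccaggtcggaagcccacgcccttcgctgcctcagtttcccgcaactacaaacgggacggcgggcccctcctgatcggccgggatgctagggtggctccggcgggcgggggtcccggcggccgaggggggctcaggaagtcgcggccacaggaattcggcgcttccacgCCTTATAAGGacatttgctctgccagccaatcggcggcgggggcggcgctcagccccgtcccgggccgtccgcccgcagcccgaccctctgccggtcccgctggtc

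Nonmuscle myosin heavy chain IIA (Myh9) varied widely between libraries of 1 group. It had 743, 1318 and 1062 CPM in KO-DTX and 1457, 1573 and 1416 CPM in KO-DMSO libraries (log2 fold change -0.51, SE 0.19, adjusted p = 0.0915), and 858, 1098 and 1004 CPM in WT-DTX and 1298, 879 and 1461 CPM in WT-DMSO libraries (-0.30, SE 0.19, adjusted p = 0.275). The lowest value of each of the KO-DTX, WT-DTX and WT-DMSO groups fell in the library whose deviations leaned most against GC-rich transcripts in that group (Spearman -0.664, -0.49 and -0.463). After a correction of each library for GC content the log2 fold changes were -0.43 in knockout-labelled (adjusted p = 0.0502) and -0.27 in wild-type cells (adjusted p = 0.159). Tpm4 had 434, 347 and 385 CPM in KO-DTX and 319.7, 312 and 343 CPM in KO-DMSO libraries, all higher after docetaxel but not called (adjusted p = 0.0831). Tpm1, Tpm2 and Myl12a were not called in either genotype, nor was Tagln, whose 0.85 and 1.24 on the log2 scale rest on 7 to 56 counts per library.

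No difference in docetaxel response between the genotypes passed an adjusted p of 0.05 for any of the 35 genes. The interaction was called for 0.0901% of all genes in the positive and 0.0193% in the negative direction. At an unadjusted p under 0.05, 4 of the 35 and 1714 of all 15538 genes passed edgeR's test, and DESeq2 called 0 of the 35. The 4 were Cav1, Fermt2, Lims1 and Lims2, all with a positive interaction, that is, a fold change that was higher in knockout-labelled cells. For Cav1 the log2 fold changes of -0.68 in knockout-labelled and -1.27 in wild-type cells differed by 0.59 (SE 0.17, unadjusted p = 0.00390, adjusted p = 0.273). For Fermt2 the difference was 0.36 (SE 0.13, adjusted p = 0.371) and for Lims1 0.48 (SE 0.18, adjusted p = 0.371). Without WT-DMSO library 1 both Cav1 and Fermt2 were called, among 431 of all genes, and with no filter on low counts Cav1 was, among 421. With all libraries 17 of all genes were called, and without WT-DMSO library 2, the richest in Gm23935, 12 were. Library 1 held the lowest WT-DMSO values of Cav1 (96.9 CPM) and Fermt2 (74.6 CPM), and library 2 the highest of Cav1 (143 CPM).

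Under DMSO, knockout-labelled cells differed from wild-type cells in 7 of the 35 genes, among them kindlin 2, SRC and the 3 tropomyosins. Tpm1 and Tpm2 were higher, and Fermt2, Src, Tpm4, Cav1 and Lims2 were lower. That is 2 higher, beside 6.6% of all tested genes, and 5 lower, beside 9.2%. The median log2 difference over the 35 was -0.04, beside 0.01 over all genes. In 6 genes all 3 KO-DMSO libraries lay above all 3 WT-DMSO libraries, beside 15.7% of all tested genes, and in 10 genes below them, beside 16.9%. Without WT-DMSO library 1, 9 genes were called (Tpm2 was lost and Cnn2, Csrp1 and Zyx were gained, all lower), while the calls over all genes were 3273 (2454 with all libraries). Without WT-DMSO library 2 and KO-DTX library 3, 3 of the 35 were called, Fermt2, Src and Tpm4, and 1267 of all genes.

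Kindlin 2 was lower in knockout-labelled cells, whereas kindlin 1 was not called. Fermt2 had 63.9, 60.9 and 65.4 CPM in KO-DMSO libraries, against 74.6, 96.3 and 97.2 CPM in WT-DMSO libraries (log2 fold change -0.50, SE 0.10, adjusted p = 0.00313), 1.41-fold lower with no overlap. Fermt1 had 137, 138 and 137 CPM in KO-DMSO and 136, 145 and 142 CPM in WT-DMSO libraries (log2 difference -0.04, SE 0.08, adjusted p = 0.795). Whether the 2 kindlins differ in this was not tested. Lims2 had 8, 5 and 10 counts in KO-DMSO libraries against 17, 33 and 27 in WT-DMSO libraries (log2 difference -1.87, SE 0.44, adjusted p = 0.0105), which is near the floor of detection in both. The start of Fermt2, shown as the kindlin that differed by genotype, held a CArG box, in capitals, at -204. 
Fermt2 promoter, chr14:45530016-45530315, minus strand: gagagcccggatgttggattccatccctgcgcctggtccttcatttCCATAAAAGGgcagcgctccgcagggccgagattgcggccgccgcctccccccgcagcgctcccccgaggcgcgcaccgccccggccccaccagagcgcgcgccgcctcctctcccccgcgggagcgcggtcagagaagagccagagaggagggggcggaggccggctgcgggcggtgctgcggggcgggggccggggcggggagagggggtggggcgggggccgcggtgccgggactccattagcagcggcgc

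Src, the tyrosine kinase that integrins activate together with FAK, was lower in knockout-labelled cells under both treatments. Under DMSO it had 116, 109 and 107 CPM in KO-DMSO libraries, against 151, 131 and 171 CPM in WT-DMSO libraries, 1.36-fold lower (log2 fold change -0.45, SE 0.10, adjusted p = 0.00766). After docetaxel it had 96.2, 115 and 104 CPM in KO-DTX libraries, against 131, 140.4 and 145 CPM in WT-DTX libraries, 1.32-fold lower (log2 fold change -0.40, SE 0.10, adjusted p = 0.0260). Every knockout-labelled library lay below every wild-type library. The call after docetaxel was lost without WT-DTX library 2 or 3 or KO-DTX library 1 or 3 (adjusted p 0.0892 to 0.127), with log2 differences of -0.34 to -0.40. Its partner kinase FAK was not called, at -0.13 (SE 0.07, adjusted p = 0.241) under DMSO and 0.04 (SE 0.07, adjusted p = 0.829) after docetaxel.

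Caveolin 1 was called lower in knockout-labelled cells under DMSO and was not called after docetaxel. It had 80.5, 85.8 and 90.02 CPM in KO-DMSO libraries, against 96.9, 143 and 106 CPM in WT-DMSO libraries (log2 fold change -0.43, SE 0.12, adjusted p = 0.0252). The groups did not overlap, but without WT-DMSO library 2, at 143 CPM, the difference was -0.25 (adjusted p = 0.0993), and it was also not called without any 1 of the 3 KO-DMSO libraries (adjusted p 0.0515 to 0.111). After docetaxel the log2 difference was 0.16 (SE 0.12, adjusted p = 0.573). Cav2 differed by -0.16 under DMSO and 0.26 after docetaxel, neither called.

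The tropomyosins, coiled-coil proteins that run along the actin filament and set which myosins and severing proteins reach it, differed in opposite directions. Tpm1 had 615, 653 and 600.3 CPM in KO-DMSO libraries, against 478, 429.9 and 516 CPM in WT-DMSO libraries, 1.31-fold higher (log2 fold change 0.39, SE 0.09, adjusted p = 0.0102). Tpm4 had 319.7, 312 and 343 CPM in KO-DMSO libraries, against 433, 503 and 417 CPM in WT-DMSO libraries, 1.39-fold lower (log2 fold change -0.47, SE 0.10, adjusted p = 0.00458). Neither gene's groups overlapped. Tpm2, the least abundant of the 3, had 15.2, 17.8 and 16.3 CPM in KO-DMSO libraries, against 6.57, 5.64 and 12.5 CPM in WT-DMSO libraries, 1.99-fold higher (log2 fold change 1.00, SE 0.30, adjusted p = 0.0374). Its difference after docetaxel was 2.15-fold (log2 fold change 1.10, SE 0.31, adjusted p = 0.0486), from 9.43, 15.8 and 11.3 CPM in KO-DTX libraries against 3.28, 7.39 and 6.29 CPM in WT-DTX libraries. All knockout-labelled libraries lay above all wild-type libraries of the same treatment. Under DMSO the Tpm2 call was lost without WT-DMSO library 1 or 2 or without any KO-DMSO library (log2 difference 0.78 to 1.05), and after docetaxel without any WT-DTX library or without KO-DTX library 2 or 3 (0.83 to 1.35). After docetaxel Tpm1 had 569, 672 and 604 CPM in KO-DTX and 514, 565 and 530.5 CPM in WT-DTX libraries, and Tpm4 434, 347 and 385 CPM in KO-DTX and 463, 475 and 451 CPM in WT-DTX libraries, with no overlap but no call (adjusted p = 0.273 for Tpm1 and 0.168 for Tpm4). The start of Tpm1, shown as that of the abundant tropomyosin that was higher, held the TEAD hexamer, in capitals, at -56. 
Tpm1 promoter, chr9:67049164-67049463, minus strand: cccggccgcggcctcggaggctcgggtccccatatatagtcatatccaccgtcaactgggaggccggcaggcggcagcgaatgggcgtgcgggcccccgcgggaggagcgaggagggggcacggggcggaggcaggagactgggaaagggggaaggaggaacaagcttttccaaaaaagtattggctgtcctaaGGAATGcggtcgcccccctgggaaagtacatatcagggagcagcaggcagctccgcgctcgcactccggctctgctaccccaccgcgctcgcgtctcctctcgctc

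**Figure D4:**
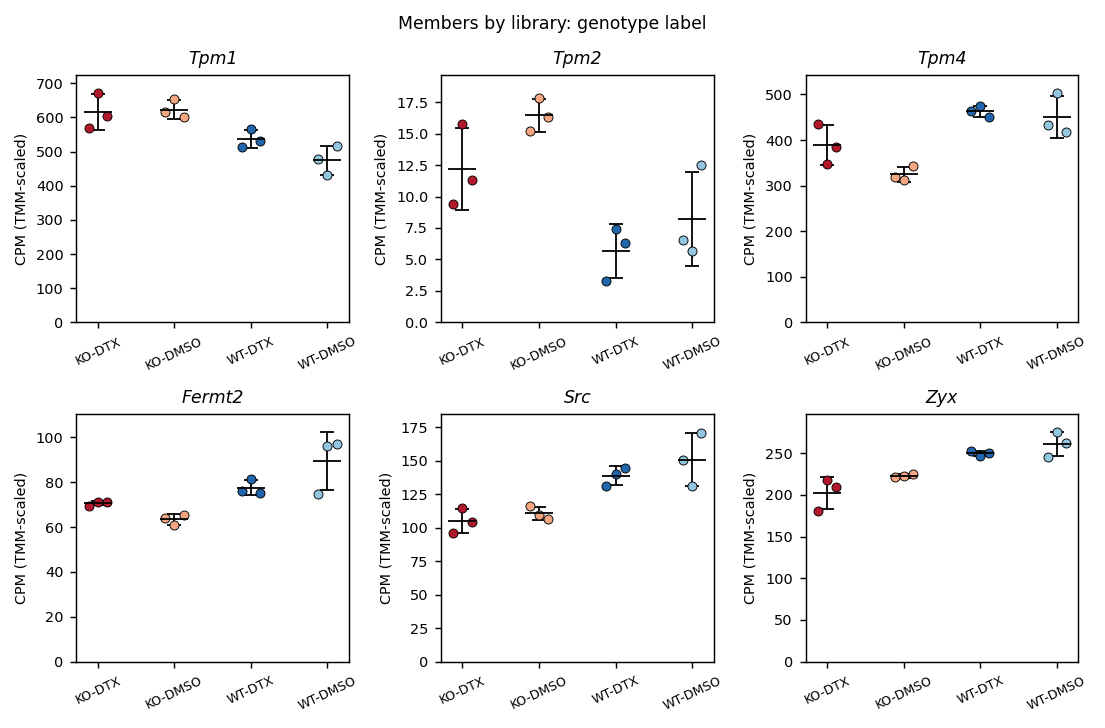
TMM-scaled CPM of Tpm1, Tpm2, Tpm4, Fermt2, Src and Zyx in each of the 12 libraries, with the mean and SD of each group as bars. Under DMSO, knockout-labelled libraries lie above wild-type libraries for Tpm1 and Tpm2 and below them for Tpm4, Fermt2, Src and Zyx.

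After docetaxel 3 of the 35 genes differed by genotype. Tpm2 was higher, beside 2.5% of all tested genes, and Src and Zyx were lower, beside 3.39%. The median log2 difference was 0.01, as over all genes. Zyx encodes zyxin, a LIM protein that gathers at adhesions and stress fibres under tension. It had 180.3, 217 and 209.6 CPM in KO-DTX libraries, against 252, 246 and 250.5 CPM in WT-DTX libraries, 1.23-fold lower (log2 fold change -0.30, SE 0.08, adjusted p = 0.0406). Under DMSO it had 221, 222 and 225 CPM in KO-DMSO and 246, 275 and 262 CPM in WT-DMSO libraries, again without overlap (log2 difference -0.23, adjusted p = 0.0719). All 3 calls after docetaxel were lost without WT-DMSO library 2 and KO-DTX library 3 together, without WT-DTX library 2 or 3, or without KO-DTX library 3. The call of Zyx was lost further without WT-DTX library 1 or KO-DTX library 1 (log2 difference -0.23 to -0.33 over all 5). It was also lost with no filter on low counts (adjusted p = 0.0733) and with the libraries of the comparison alone (adjusted p = 0.0816). In 7 genes the KO-DTX libraries lay wholly above the WT-DTX libraries, beside 11.9% of all tested genes, and in 6 wholly below, beside 13.2%.

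**Figure D5:**
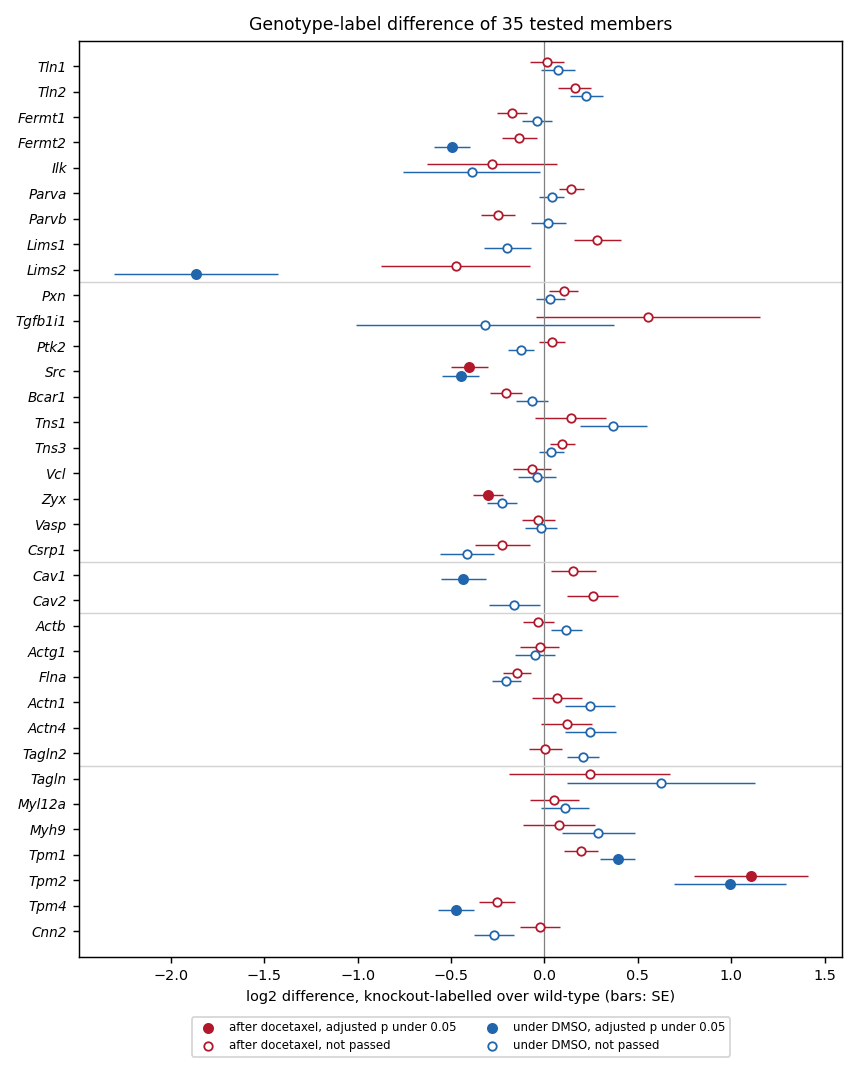
Log2 difference, knockout-labelled over wild-type, with its SE for the 35 tested genes, ordered by role, after docetaxel (red, upper point) and under DMSO (blue, lower point), with filled points where the adjusted p was under 0.05. Src and Tpm2 are filled under both treatments, and Lims2 lies farthest to the left with a wide SE.

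In all, 17 of the 35 genes were called in at least 1 of the 5 contrasts, beside 39.8% of all tested genes, and 18 in none. The 18 were talins 1 and 2, Ilk, Parva, Tgfb1i1, Ptk2, Bcar1, Tns3, Vcl, Vasp, Csrp1, Actb, Actg1, Actn1, Actn4, Tagln, Myl12a and Myh9. Several of them had small SEs. Under docetaxel, Tns3 was at -0.12 in knockout-labelled and -0.18 in wild-type cells, with an SE of 0.07 in both. Its docetaxel libraries lay wholly below its DMSO libraries in both genotypes. It had 261, 265 and 263 CPM in KO-DTX and 280, 287 and 289 CPM in KO-DMSO libraries. In WT-DTX libraries it had 253, 233 and 253 CPM, against 280, 278 and 276 CPM in WT-DMSO libraries. Vasp was at 0.08 and 0.09, with an SE of 0.09 in both. Csrp1, a LIM protein of actin bundles, had 87.5, 103 and 93.5 CPM in KO-DMSO and 107, 115 and 156 CPM in WT-DMSO libraries, which did not overlap (log2 difference -0.41, adjusted p = 0.0705).

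Further components of adhesions and paralogues of the 37 genes were also called in both directions after docetaxel. Of 33 other tested adhesion components, 1 rose (Crk) and 5 fell in knockout-labelled cells, and 2 rose (Crk and Arhgef7) and 9 fell in wild-type cells. Over all tested genes 9.09% rose and 7% fell in knockout-labelled cells, and 14.5% rose and 13.8% fell in wild-type cells. Nexn, an actin-binding protein of adhesions, was at -0.47 (SE 0.12, adjusted p = 0.0140) in knockout-labelled and -0.52 (SE 0.12, adjusted p = 0.00470) in wild-type cells on the log2 scale. Cortactin (Cttn), which binds branched actin networks, fell in knockout-labelled cells (-0.54, SE 0.16, adjusted p = 0.0310). Ablim1, an actin-binding LIM protein, was called lower in both genotypes. It averaged 111 CPM in KO-DTX against 139 CPM in KO-DMSO libraries, and its log2 fold change in wild-type cells was -0.78 (SE 0.09, adjusted p = 8.49e-05). Of 19 tested paralogues, tensin 2 fell like tensin 1, with 82.3 CPM in KO-DTX against 125 CPM in KO-DMSO libraries (log2 fold change -0.60, SE 0.08, adjusted p = 0.000117) and 84.7 CPM in WT-DTX against 150.5 CPM in WT-DMSO libraries (log2 fold change -0.83, SE 0.08, adjusted p = 8.49e-06). Tensin 4 (Tns4), the most abundant tensin per kilobase at 94.4 CPM, was not called in either genotype. The paralogue list had 3 that rose and 1 that fell in knockout-labelled cells. The risers were Fyn, and Cnn1 and Fermt3 at averages under 1 CPM. In wild-type cells 1 rose (Cnn3) and 2 fell (Tns2 and Lyn).

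A few regulators of actin filaments were called, in both directions in both genotypes. Of 18 genes of the Arp2/3 complex and other nucleating, severing or capping factors, 1 rose and 1 fell in knockout-labelled cells, and 4 rose and 2 fell in wild-type cells. In knockout-labelled cells that is 5.56% each way, beside 9.09% of all tested genes that rose and 7% that fell. In wild-type cells it is 22.2% and 11.1%, beside 14.5% and 13.8%. Gelsolin (Gsn), which severs and caps filaments, fell in both, at -0.52 (SE 0.14, adjusted p = 0.0230) and -0.67 (SE 0.14, adjusted p = 0.00331).

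MRTF, a coactivator of serum response factor (SRF), and YAP, also a coactivator of transcription, respond to actin and adhesion. Of 12 tested genes of the MRTF and SRF list, 2 rose (Fos and Zfp36) and none fell after docetaxel in knockout-labelled cells. In wild-type cells 3 rose (Fos, Fosl1 and Zfp36) and 1 fell (Cald1). The shares of all tested genes that rose and fell were 9.09% and 7% in knockout-labelled and 14.5% and 13.8% in wild-type cells. Whether MRTF or SRF had a part in these changes was not tested. Fos had 19.7 ± 1.45 CPM in KO-DTX against 7.36 ± 1.02 CPM in KO-DMSO libraries and 10.4 ± 1.000 CPM in WT-DTX against 3.02 ± 0.725 CPM in WT-DMSO libraries (SD, n = 3), rises of 1.42 (adjusted p = 2.84e-05) and 1.78 (adjusted p = 1.08e-05) on the log2 scale. Of 20 tested genes of the YAP list, 3 rose (Ccn1, Ccn2 and Nt5e) and none fell in knockout-labelled cells. In wild-type cells 2 rose (Ccn2, and Fjx1 at averages under 1 CPM) and 2 fell (Crim1 and Nuak2). Crim1 averaged 88.9 CPM in WT-DTX against 121 CPM in WT-DMSO libraries, and Nuak2 21.3 against 30.6 CPM. Ccn2, a secreted matricellular protein, rose by 0.46 (SE 0.10, adjusted p = 0.00660) in knockout-labelled and 0.85 (SE 0.10, adjusted p = 7.65e-05) in wild-type cells.

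By genotype under DMSO, 6.6% of all tested genes were higher and 9.2% lower. The YAP list had 2 genes higher and 5 lower of 20. Other adhesion components had 2 higher and 3 lower of 33, with Ptk2b, the FAK relative PYK2, at -0.88 (SE 0.10, adjusted p = 3.98e-05), palladin (Palld) at -0.66 (SE 0.14, adjusted p = 0.00715) and Pdlim5 at -0.59 (SE 0.09, adjusted p = 0.000530) on the log2 scale. Among the paralogues, with 2 higher and 2 lower of 19, Enah, an actin elongation factor of the VASP family, was higher at 0.58 (SE 0.09, adjusted p = 0.000696). The MRTF and SRF list had 1 higher and 1 lower of 12, Fos at 1.28 (SE 0.17, adjusted p = 0.000182) and Egr1 at -1.06 (SE 0.15, adjusted p = 0.000433). Arp2/3 and related factors had 1 higher and 1 lower of 18. After docetaxel, Enah (0.56, SE 0.09, adjusted p = 0.00184) and Ablim1 (0.68, SE 0.09, adjusted p = 0.000529) were higher and Palld (-0.76, SE 0.14, adjusted p = 0.00540) and Ptk2b (-0.51, SE 0.10, adjusted p = 0.00572) lower in knockout-labelled cells. The lists then had, higher and lower, 2 and 2 of the other adhesion components, 1 and 0 of the paralogues, 0 and 0 of the Arp2/3 list, 1 and 2 of the MRTF and SRF list and 0 and 2 of the YAP list. Over all tested genes 2.5% were higher and 3.39% lower after docetaxel. None of these lists had a gene called in the interaction, beside 0.0901% of all tested genes in the positive and 0.0193% in the negative direction.

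Starts of 29 of the 37 genes were present in the RefSeq table. A CArG box lay in 5 of them (Actg1, Cnn2, Fermt2, Myl9 and Vcl), beside 1.81% of the 27025 genes with a window of that length. The TEAD hexamer lay in 7 (Acta2, Actn4, Flna, Myl12a, Tagln2, Tpm1 and Vcl), beside 16.6%, and the AP-1 heptamer in 4 (Actn4, Cav2, Myl12a and Zyx), beside 8.97%. Of the 4 tested genes with a CArG box, Cnn2 fell after docetaxel in wild-type cells and Actg1, Fermt2 and Vcl were not called. A match is a run of letters in a short window and says nothing of whether a factor was bound there.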

How the data were processed

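RNA of 12 cell cultures was sequenced after depletion of ribosomal RNA, with random hexamers and paired reads, per the labels' protocols. The authors deposited raw read counts per gene symbol. The submitters' processing notes name bcl2fastq, then the aligner STAR in version 2.5.1a, and featureCounts in version 1.4.6-p5. Build, annotation, strand setting and the handling of multi-mapped reads were not given in the sources used here, so genes that overlap or resemble others are uncertain. Of 40757 entries, 351 that repeated another in symbol and every count (0.907% of the counts) were removed. Positions, exon lengths and GC content come from GENCODE M21 on GRCm38, matched by symbol, and promoters from RefSeq on GRCm38.p6.

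Total counts were 28.7 to 40.8 mega-counts per library. Libraries of 1 group differed with a chi-square of 7.79 to 155 per degree of freedom, so none repeated another. Genes were filtered with filterByExpr, scaled by TMM and fitted with edgeR 4.0.16 in R 4.3.3 as 1 quasi-likelihood model with a mean per group over all 12 libraries. The common biological coefficient of variation was 13.2%. Tests were two-sided, with Benjamini-Hochberg adjustment over 15538 genes within each of 5 contrasts and a threshold of 0.05. The SE of a log2 fold change was taken from its size and its F statistic (size over the root of F). CPM values are TMM-scaled, and CPM per kilobase divides them by the length of all exons merged. The model was tested on simulated data.

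The genes and lists were chosen with earlier results of these data known. Each library's value is given for a gene of the 37 where it was called and reached a mean of 5 CPM in the higher group. Others are given by range and count. Values are also given for some, not all, of those whose libraries did not overlap or that came close to the threshold. That choice was made after their values were seen. From each further list up to 3 called genes per contrast were chosen to be described, those with the largest changes and at least 5 CPM. Some other genes of these lists are named besides. Some results of these lists are not reported here. Alternatives were DESeq2 1.42.0, RLE and upper-quartile scaling, no filter, at least 1 CPM in 3 libraries, the libraries of a comparison alone, replicate number as a block, repeated entries kept, a lowess correction for GC content (span 0.3), omission of each library in turn and omission of WT-DMSO library 2 and KO-DTX library 3, the libraries with the most Gm23935 in their groups. Plots come from Python 3.11.15 with matplotlib 3.10.9.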

Additional observations from a re-analysis of the deposited data

How the results depend on the processing

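Of the 25 calls among the 37 genes, all 25 held under DESeq2, the GC correction, RLE and upper-quartile scaling, the replicate block and the repeated entries kept, 22 with no filter, 19 with the libraries of the comparison alone and 14 without WT-DMSO library 2 and KO-DTX library 3 (the pair with the most Gm23935 in their groups). Cav1, Tns1, Fermt1 and Tagln2 after docetaxel in both genotypes, and Fermt2, Src and Tpm4 by genotype under DMSO, held in all 16 settings run. Omission of 1 library at a time gave 4 to 8 of the 35 genes and 1311 to 2739 of all genes for docetaxel in knockout-labelled cells, 1264 to 3273 of all genes by genotype under DMSO, and 0 to 2 of the 35 and 467 to 729 of all genes by genotype after docetaxel. It gave 0 to 2 of the 35 and 2 to 431 of all genes for the interaction, and a log2 difference of -0.091 to 0.036 for Itgb3 under DMSO, positive without WT-DMSO library 1. By genotype under DMSO the GC correction called 11 of the 35 and 3127 of all genes (2454 uncorrected), and without that pair 3 of the 35 and 1267 of all genes were called. By genotype after docetaxel there were 0 of the 35 and 565 of all genes without that pair, and 1 of the 35 with the libraries of the comparison alone. For the interaction, no filter gave 1 of the 35 and 421 of all genes, the replicate block 48, the GC correction 42, DESeq2 154 and omission of that pair 4 of all genes. For docetaxel in knockout-labelled cells, 56.5% of calls were higher with TMM and 45.3% with upper-quartile scaling. The causes were not tested. Fewer libraries leave less power by construction, but the counts did not always drop. Without WT-DMSO library 1, 4771 of all genes were called for docetaxel in wild-type cells (4406 with all libraries). By genotype under DMSO the same omission gave 3273 (2454 with all libraries). Deviations of log2 CPM from the group mean correlated between -0.64 and 0.677 across genes for same-numbered libraries of different groups, so the numbers were not taken to pair the samples. As a block they called 10 of the 35 genes for docetaxel in wild-type cells, 5 in knockout-labelled cells, 9 by genotype under DMSO, 3 after docetaxel and 0 in the interaction. Low counts leave wide errors for genes such as Lims2 and Tgfb1i1.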
